A study of Mus musculus with 2 samples.

Results

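Flt3 cells of the mouse fetal liver were examined in single-cell transcriptomes of IκBα WT and KO embryos. The cells were chosen by their UMI counts of 11 rule genes, so those genes are described only. A Flt3 cell held at least 1 UMI (unique molecular identifier, 1 captured RNA molecule) of Flt3, none of Il7r, Ebf1 or Gata1, at most 1 of Klf1, at most 9 of Mpo and at most 9 of C1qa, C1qb and C1qc together. Cells with UMIs of both Hlf and Mecom were left out, as were cells with fewer than 1000 detected genes or over 20% mitochondrial UMIs. The rule found 393 of 7875 filtered cells, 184 in the WT and 209 in the KO library. Both libraries came from the liver of CD1 embryos at E14.5, depleted of lineage-positive cells and sorted as LSK cells (negative for lineage markers, positive for SCA1 and cKIT). The WT library pooled 2 embryos. The KO library pooled 3 embryos of a targeted Nfkbia knockout line, and Nfkbia encodes IκBα. With 1 library per genotype no difference could be tested against replicates, and genotype cannot be told apart from the library. Intervals are given at 95% and reflect counting error alone.

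FLT3 is a receptor tyrosine kinase that binds the cytokine FLT3 ligand and signals through PI3K, RAS and STAT proteins. In blood formation its gain marks multipotent progenitors that lose self-renewal and most megakaryocyte and erythroid potential, begin to transcribe lymphoid genes and can still form myeloid cells. IκBα holds NF-κB dimers in the cytoplasm, and its gene is itself a target of NF-κB.

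The libraries held 109122324 UMIs (WT) and 100029143 UMIs (KO), and 7 cell barcodes occurred in both, 0 of them among the Flt3 cells. The median Flt3 cell had 19399.5 UMIs in WT and 14526 in KO, so a rare RNA was more easily seen in WT. Y-linked UMIs without Xist were found in 0 WT and 31 KO Flt3 cells (14.8%), so the KO cells came from both sexes. Scrublet called 0 WT and 1 KO Flt3 cell as doublets. A single cell in each library held most of the hepatocyte RNA of the Flt3 cells, 3884 UMIs of the hepatocyte list in WT and 5194 in KO, where the next highest cells held 13 and 11. Both cells are in the counts above, and the gene counts of each comparison are given without them too or leave them out.

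Nfkbia, the deleted gene, was read first as a check of the labels. Nfkbia (ENSMUSG00000021025, protein-coding, GRCm38 chromosome 12, 55489410 to 55492647, minus strand) had 62 UMIs in 41 of 184 WT Flt3 cells. The KO Flt3 cells held 0 UMIs in 209 cells, which allows up to 1.44% of cells with a UMI. Against a floor of 3 UMIs over the KO cells, Nfkbia was at least 17-fold lower in KO.

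Flt3 (ENSMUSG00000042817, protein-coding, chromosome 5, 147330741 to 147400489, minus strand) chose the cells, so its level is a description. Of the Flt3 cells, 110 WT and 140 KO cells held 1 UMI of it, 44 in each library held 2, and 30 WT and 25 KO cells held 3 or more. Just outside the limit were 317 WT and 580 KO cells that met every other condition with 0 Flt3 UMIs. In erythroid cells, which should lack Flt3, a Flt3 UMI was present in 3.45% (WT) and 3.92% (KO). At the Mpo limit, 23 WT and 26 KO cells held 8 or 9 UMIs, and 16 WT and 11 KO cells with 10 or 11 were left out. A single Il7r UMI removed 18 WT and 23 KO cells. Leaving out cells with Hlf and Mecom removed 149 WT and 85 KO cells, and most Flt3 cells still held Hlf, a transcription factor of stem and early progenitor cells (74.5% in WT, 58.9% in KO). UMIs of Kit and Ptprc, which encode cKIT and the blood cell marker CD45, were both absent in 29 WT and 39 KO Flt3 cells.

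The share of Flt3 cells differed little between the libraries when all UMIs were used. It was 5.32% of 3458 WT cells (Clopper-Pearson interval 4.6 to 6.12) and 4.73% of 4417 KO cells (4.12 to 5.4). KO minus WT was -0.589 percentage points, with an interval of -1.59 to 0.396. When every cell was first thinned to 8000 UMIs and shallower cells were left out, the difference was -2.44 percentage points (-3.58 to -1.31). Without the limit on Mpo it was -2.69 (-3.97 to -1.43). The sort set which cells entered both libraries, so these are shares of sorted cells.

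The name lymphoid-primed multipotent progenitor was checked against its markers Cd34, Cd48 and Satb1. Levels are CPM, the UMIs of a gene scaled to all UMIs summed over a set of cells, and compare 1 gene between sets. The Flt3 cells were set beside 4 other sets. The matched core held cells with both Hlf and Mecom that met the rule's other conditions except Flt3 (359 WT and 312 KO cells). It was formed after the data were seen, since the whole stem cell core carried more erythroblast RNA (8060 CPM in WT and 16800 in KO for the summed list) than the Flt3 cells (1270 and 1520). The peers met the rule but had 0 Flt3 UMIs and at least 1 UMI each of Kit and Ptprc (59 WT and 84 KO cells). The Il7r cells (132 and 130) and the Mpo cells (380 and 356) stood for later lymphoid and myeloid stages.

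All 3 markers were higher in the Flt3 cells than in the matched core, in both libraries. Cd34, a sialomucin of early progenitors, had 302 CPM (284 to 320) in WT and 271 (253 to 290) in KO Flt3 cells, against 230 and 219 in the matched core. Cd48, a surface receptor that long-term stem cells lack, had 139 (128 to 152) and 136 (123 to 150) CPM, against 64.8 and 88.6. Satb1, a chromatin organiser of lymphoid progenitors (chromosome 17, 51736187 to 51833290, minus strand), had 49.1 (42.3 to 56.7) and 53.1 (45.3 to 61.8) CPM, against 29.4 and 30.5. Satb1 was higher again in the Il7r cells, with 116 CPM in WT and 132 in KO. In the Mpo cells it was 36.4 and 40.2. The Flt3 cells thus lay between the core and the Il7r cells for Satb1, with intervals that did not overlap either set. Cd34 had 296 CPM in WT and 253 in KO Il7r cells, and 265 and 247 in the Mpo cells. Cd48 had 104 and 88.4 in the Il7r cells, and 145 and 116 in the Mpo cells. Cd34 and Cd48 were thus above the matched core in the myeloid set too.

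Dntt, Cd79a and Rag1 were rare or absent, whereas Cd79b was common. Dntt, the template-independent polymerase of antigen receptor joining, had a UMI in 0 of 184 WT cells, which allows up to 1.63% of cells with a UMI, and in 1 of 209 KO cells. The Il7r cells, 132 in WT and 130 in KO, held 0 Dntt UMIs too, so Dntt did not separate the 2 sets. Cd79a, part of the B cell receptor, was found in 0 cells of either library, but in 9.09% (WT) and 13.1% (KO) of the Il7r cells. Rag1, a recombinase gene, was found in 6 WT and 0 KO Flt3 cells, against 15.2% and 16.2% of the Il7r cells. Vpreb1, a surrogate light chain, was found in 8 and 6 Flt3 cells, 4.35% and 2.87%, close to the 2.48% and 1.47% of erythroid cells. Rag2, the partner of Rag1, was found in 10 and 8 cells. Cd79b, the other part of the B cell receptor's signalling pair, was found in 51.6% and 43.1% of the Flt3 cells, against 7.66% and 6.56% of erythroid cells and 53.9% and 43.6% of the whole stem cell core. The summed B lineage list had 45.4 CPM in WT and 46.9 in KO Flt3 cells, against 5.29 and 4.89 in erythroid cells, 39.9 and 39.8 in the whole core and 151 and 259 in the Il7r cells.

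**Figure D1:**
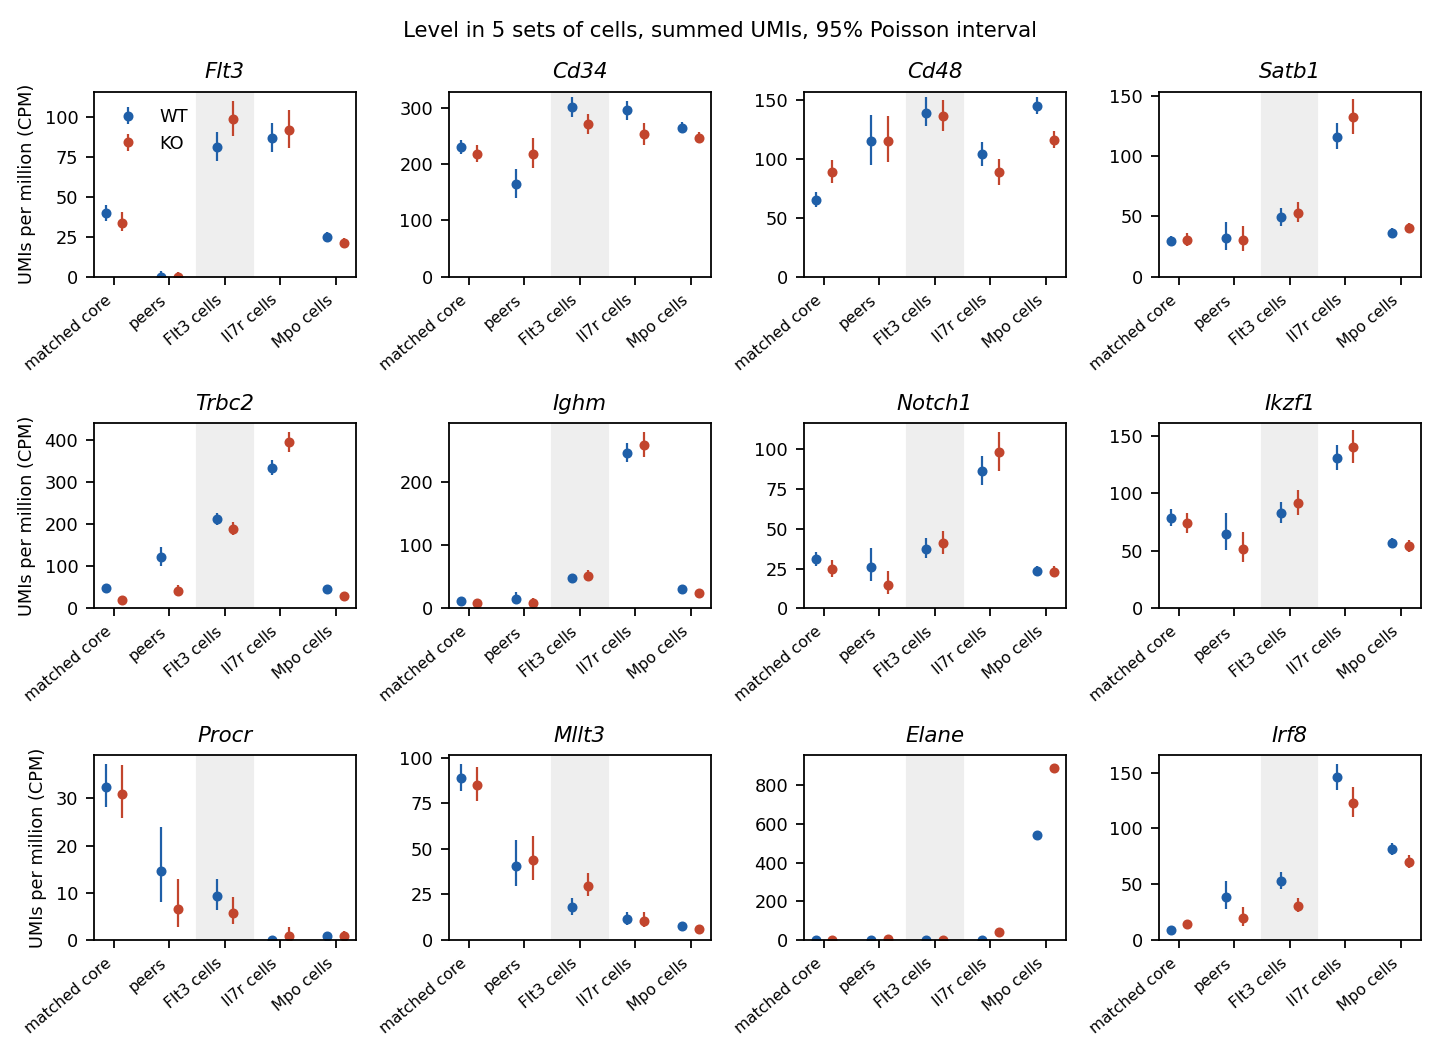
Levels of 12 genes (CPM, vertical axes, with 95% Poisson intervals of counting error) in the matched core, peers, Flt3 cells, Il7r cells and Mpo cells of the WT (blue) and KO (red) libraries. Satb1 was higher in the Flt3 cells (49.1 and 53.1 CPM) than in the matched core (29.4 and 30.5) and highest in the Il7r cells (116 and 132).

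Genes of antigen receptor loci were among the largest differences from the matched core. Against the whole stem cell core, 144 of 7688 genes passed a log2 ratio of 1 in both libraries (1.87%), 27 of them higher (0.351%) in the Flt3 cells. Without the 2 hepatocyte-rich cells 147 of 7666 genes did (1.92%), 13 of them higher (0.17%) and 134 lower (1.75%). The comparison with the matched core left out the 2 hepatocyte-rich cells and counted a gene as past the fold when its log2 ratio passed 1 in the same direction in both libraries. Of 6392 genes with enough UMIs, 58 were past it (0.907%), 15 higher (0.235%) and 43 lower (0.673%) in the Flt3 cells, and the median of all genes was -0.06 in each library. Trbc2, a T cell receptor constant gene (ENSMUSG00000076498, chromosome 6, 41546730 to 41548352, plus strand), had 215 CPM in WT and 192 in KO Flt3 cells, against 48.4 and 20.4 in the matched core. Its log2 ratio was 2.15 (1.96 to 2.35) in WT and 3.24 (2.90 to 3.59) in KO. Trbc2 was higher again in the Il7r cells, with 333 and 393 CPM, and had 121 and 42.1 in the peers. Ighm, the IgM heavy chain constant gene (chromosome 12, 113418558 to 113422730, minus strand), had 48.1 and 52.8 CPM against 12 and 8.14, with log2 ratios of 2.00 and 2.70. Both can be transcribed before their locus is joined, and the reads do not show whether it was. Trbc2 has a near-identical copy, Trbc1, between which counting can split reads.

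Other genes past the fold upward included Plac8, Cd52, 2 oxidase genes and Irf8. Plac8, a gene of myeloid and lymphoid progenitors, was even between libraries, with 258 CPM in WT and 260 in KO against 97 and 97.7, and a log2 ratio of 1.41 in each. Cd52, a small surface glycoprotein, had log2 ratios of 1.35 and 1.90. Ncf4 and Ncf1, subunits of the phagocyte oxidase, had ratios of 1.26 and 1.30 in WT and of 1.18 and 1.15 in KO. Irf8, a factor of monocyte and dendritic fates, had 53.5 and 31 CPM against 9.1 and 14. Some of these rested on few cells. The top cell held 65.8% of the WT and 87.2% of the KO UMIs of Cd74, the class II invariant chain, and 35.4% and 15.2% of those of Id2, an inhibitor of E proteins. For Trbc2 and Ighm the top cell held at most 7.26%.

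Stem cell genes were lower in the Flt3 cells. Of 17 stem cell list genes tested (those with enough UMIs), 5 were past the fold downward, as were 0.673% of all genes. In 16 the log2 ratio was below 0 with an interval that excluded it in both libraries, as in 10.2% of all genes. The list medians were -0.924 in WT and -0.909 in KO. Procr, the protein C receptor of fetal liver stem cells (chromosome 2, 155751117 to 155755471, plus strand), had 9.4 CPM in WT and 5.87 in KO, against 32.5 and 31. Mllt3, which maintains stem cells (chromosome 4, 87769925 to 88033364, minus strand), had 17.7 and 30 CPM against 88.9 and 85.2. Pdzk1ip1 had log2 ratios of -3.46 and -2.11, and Esam, an adhesion molecule, of -1.85 and -2.57. The exception in the list was Ctla2a, with 0.29 (0.21 to 0.38) in WT and 0.06 (-0.04 to 0.16) in KO. Hlf and Mecom formed the core, so genes that vary with them differ partly by the way the sets were chosen.

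The lymphoid priming list moved little as a whole. Of its 14 genes tested, 1 was past the fold (Ighm), and the medians were 0.075 in WT and 0.235 in KO. Intervals lay above 0 in both libraries for 5 genes and below 0 for 2, where 6.66% and 10.2% of all genes did so. Lsp1, a lymphocyte actin-binding protein, had log2 ratios of 0.37 and 0.52, and Tespa1, a T cell signalling protein, of 0.40 and 0.66. Ltb, which encodes lymphotoxin beta, was lower, with -0.84 (-1.01 to -0.67) and -0.98 (-1.13 to -0.82), as was Mef2c, a lymphoid and myeloid factor, with -0.26 in each. Notch1, the receptor that drives T cell fate, had 0.25 (-0.07 to 0.58) in WT and 0.75 (0.36 to 1.14) in KO.

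None of the genes that act with FLT3 in signalling was past the fold upward. Of 18 pathway genes tested, 0 were past the fold upward and 1 downward, and 16 had ratios below 0 in both libraries, as did 45.6% of all genes. Of the 18, 5 had intervals below 0 in both libraries, as did 10.2% of all genes. The one was Socs2, a feedback inhibitor of cytokine receptors, with log2 ratios of -1.15 and -1.49. Pik3r1, the regulatory PI3K subunit, had -0.89 and -0.67. Pim1, a kinase induced by STAT signalling, had -0.62 and -0.36. The list medians of -0.222 and -0.255 compare with -0.06 for all genes.

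**Figure D2:**
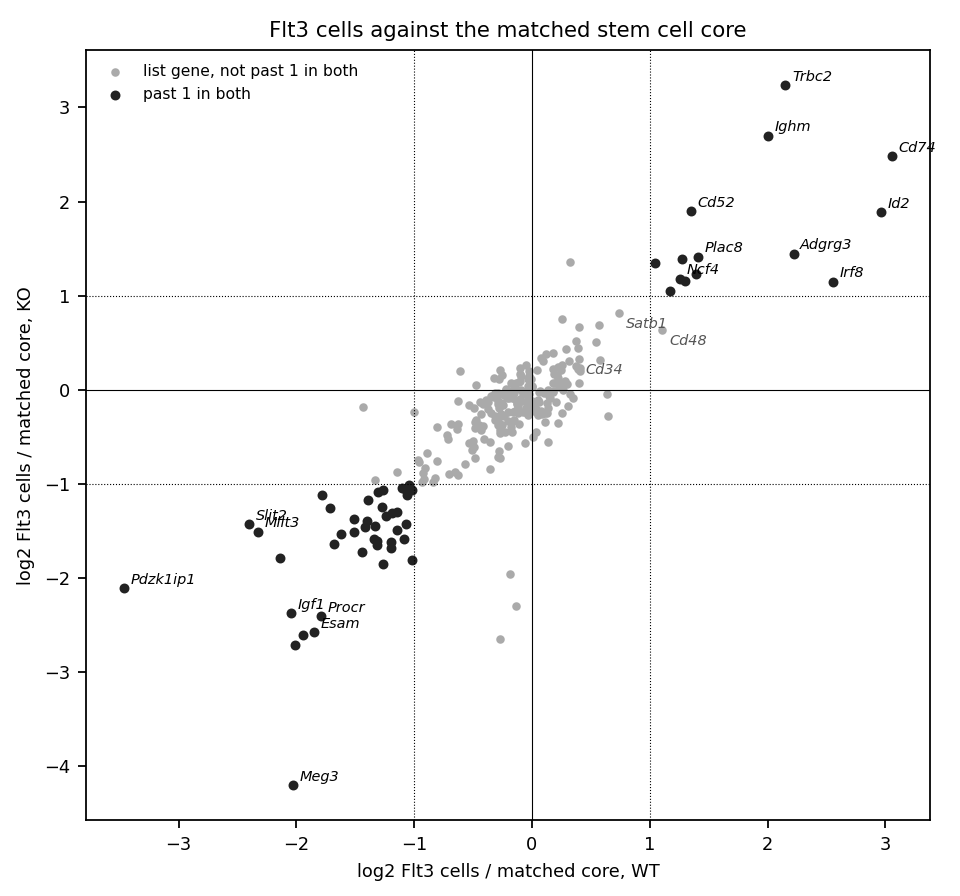
Log2 ratio of CPM in Flt3 cells over the matched core, WT library on the horizontal and KO library on the vertical axis, 1 point per gene. Black genes were past 1 in both libraries and grey ones are list genes that were not. Trbc2 lies at 2.15 and 3.24 and Procr at -1.79 and -2.40.

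The peers, which met the other conditions without a Flt3 UMI, differed in few genes. Of 4724 genes, 8 were past a log2 ratio of 1 in both libraries (0.169%), 4 higher (0.0847%) and 4 lower (0.0847%), Flt3 among them by the rule. Without the 2 hepatocyte-rich cells 7 of 4677 genes were past it (0.15%), 3 higher (0.0641%) and 4 lower (0.0855%). Ighm had 15.5 CPM in WT and 9.07 in KO peers, for log2 ratios of 1.61 and 2.52. Zfpm1, the cofactor of GATA1, was lower in the Flt3 cells, with 36.9 and 34.7 CPM against 84.4 and 92.4. Cd74 (log2 ratios 4.46 and 4.41) was higher and Apoe and Rab38 lower, and the Cd74 UMIs sat mainly in 1 cell of each library. Meg3, an imprinted non-coding RNA, had log2 ratios of 3.94 and 1.23, but 90.7% and 94.2% of its UMIs were in 1 cell, and without the hepatocyte-rich cells its ratios were 0.54 (-1.03 to 2.54) in WT and -2.85 (-4.34 to -1.55) in KO.

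Against the Mpo cells, granule genes were lower in the Flt3 cells, some of them near 0 and others not. Of 7378 genes, 210 were past the fold (2.85%), 85 higher (1.15%) and 125 lower (1.69%). Without the 2 hepatocyte-rich cells 207 of 7357 were (2.81%), 77 higher (1.05%) and 130 lower (1.77%). Elane, neutrophil elastase, had 0.531 CPM in WT and 2.89 in KO Flt3 cells, against 541 and 890. Prtn3, another granule protease, had 177 and 161 CPM, and Mpo itself was detected in 73.9% and 71.8% of the Flt3 cells. The Mpo limit of the rule chose cells on this axis, so the granule genes are a description. Ltb was higher in the Flt3 cells, with 105 and 153 CPM against 17.7 and 22, as were Trbc2 and Cdkn1c, a cell cycle inhibitor (log2 ratios 1.84 and 2.24, and 1.72 and 1.87 without the hepatocyte-rich cells). Against the Il7r cells, 93 of 5602 genes were past the fold (1.66%), 34 of them lower (0.607%), and without the hepatocyte-rich cells 77 of 5562 (1.38%), 35 of them lower (0.629%). Ighm was lower, with 47.5 and 52.1 CPM against 247 and 260.

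Ccr9 and Ikzf1 were highest in the cells with 3 or more Flt3 UMIs. Satb1 had 41 CPM in WT cells with 1 Flt3 UMI, 42.7 with 2 and 79.3 with 3 or more. In KO it had 41.3, 83.9 and 57.8. Ccr9, a chemokine receptor of thymus-seeding progenitors (chromosome 9, 123678439 to 123784330, plus strand), had 23.3, 25.2 and 82 CPM in WT and 4.53, 28.9 and 69.3 in KO. Ikzf1, the lymphoid factor Ikaros, had 71.4, 83.2 and 115 in WT and 80.1, 107 and 120 in KO. Procr had 12.4, 7.66 and 2.64 in WT and 7.05, 5.79 and 0 in KO. Its UMIs were few, 35 in 26 WT and 18 in 10 KO Flt3 cells. They do not order the bins, and the 0 lies under the floor of 3 UMIs. Between 1 and 3 or more UMIs the intervals of Ccr9 did not overlap in either library. The Ccr9 UMIs came from 23 WT and 20 KO cells, and the intervals do not hold the spread among them. Those of Satb1 overlapped in KO (32.8 to 51.3 and 37.4 to 85.3). Cells with more Flt3 UMIs were also deeper, with medians of 18386.5 UMIs at 1 and 24216.5 at 3 or more in WT and of 14081.5 and 17296 in KO, and the part of depth in this was not tested.

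A small group of cells with Ccr9 was rich in T cell receptor RNA, and held 474 of 800 Trbc2 UMIs in WT and 247 of 588 in KO. Ccr9 was detected in 12.5% of the WT and 9.57% of the KO Flt3 cells, against 0.966% and 0.98% of erythroid cells. Without the 2 hepatocyte-rich cells these were 23 WT and 20 KO cells. They were picked after the values were seen, so the following is a description. Trbc2 had 839 CPM in WT cells with Ccr9 and 103 in those without, and 744 and 125 in KO. Notch1 had 76.1 and 29.8 in WT, and 133 and 30.4 in KO. Nfil3, a factor of innate lymphoid development, had 28.3 and 4.12 in WT, and 84.3 and 14.3 in KO. Ighm followed the same order, with 159 and 28.2 in WT and 166 and 39.1 in KO. Ccr9 was not particular to the Flt3 cells, since it was detected in 28% of the WT and 32.3% of the KO Il7r cells.

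Prtn3, Lyz2, Irf8 and Cd48 were lower in the Ccr9 cells of both libraries. Prtn3 had 79.6 CPM with Ccr9 and 194 without in WT, and 42.2 and 176 in KO. Lyz2, lysozyme, had 24.8 and 70.9 in WT, and 21.1 and 62.2 in KO. Irf8 had 10.6 and 61.1 in WT, and 12 and 33.3 in KO. Mpo, which the rule limits, was lower too, with log2 ratios of -0.936 (-1.394 to -0.507) in WT and -1.051 (-1.604 to -0.544) in KO. Csf2rb had -1.98 in WT and -1.35 in KO, and Csf3r -1.93 and -0.69, with KO intervals that included 0. Some other myeloid genes were not lower in both libraries. Spi1, the factor PU.1, had log2 ratios of 0.04 (-0.28 to 0.35) in WT and -0.02 (-0.47 to 0.40) in KO, Cebpb had -0.59 and 0.49, and Cst7, a cystatin, had 0.90 (-0.47 to 2.10) and 1.64 (0.49 to 2.69). Cd48 had 65.5 and 153 in WT, and 51.2 and 149 in KO. Cd34 did not separate the groups, with log2 ratios of -0.11 (-0.36 to 0.13) in WT and 0.10 (-0.22 to 0.41) in KO. The Ccr9 cells were deeper, with medians of 24983 against 18765.5 UMIs in WT and 16417 against 14283 in KO.

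**Figure D3:**
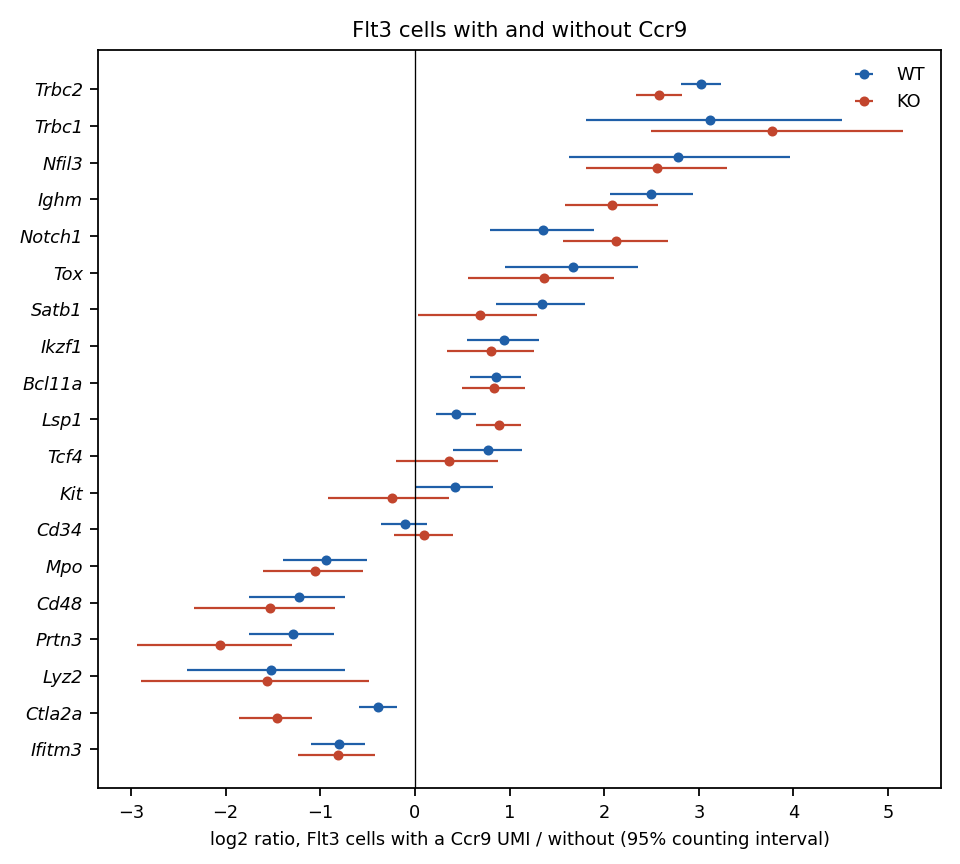
Log2 ratio of CPM in Flt3 cells with a Ccr9 UMI over those without, for 19 genes, with 95% intervals of counting error, in the WT (23 and 160 cells) and KO (20 and 188 cells) libraries. Trbc2 (3.02 and 2.58) and Ighm (2.5 and 2.08) lie above 0 and Cd48 (-1.22 and -1.54) below it in both.

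Loss of IκBα was compared within the Flt3 cells. A gene was counted when its log2 KO over WT passed 0.5 in size, whatever its interval, over genes with at least 100 UMIs in both libraries together. Of 6131 genes, 208 were past it (3.39%), 92 higher (1.5%) and 116 lower (1.89%) in KO, with a median of 0.013 over all genes. Of the 10 highest genes by rank, 7 (Fabp1, Spp2, Apoa2, Serpina1a, Serpinf2, Rbp4 and Vtn) had 87.8% or more of their UMIs in 1 cell of each library. These are liver secretory genes. Apoc1, an apolipoprotein, had a log2 KO over WT of 2.14 with the 2 hepatocyte-rich cells and 0.36 (-0.68 to 1.41) without them. Without these cells 191 of 6066 genes were past the fold (3.15%), 78 higher (1.29%) and 113 lower (1.86%), and the values below leave them out.

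Among higher genes, Ltb was the member of the lymphoid priming list. Its level did not rise toward the Il7r cells, with 189 CPM in WT and 306 in KO in the matched core and 39.6 and 77.8 in the Il7r cells. Ltb (chromosome 17, 35194439 to 35196320, plus strand) had 106 CPM in WT and 155 in KO Flt3 cells, a log2 KO over WT of 0.55 (0.36 to 0.75). It was higher in KO in the matched core also, with 0.69 (0.58 to 0.81), and in Flt3 cells with Xist and no Y-linked UMI, with 0.55 (0.33 to 0.76). Its promoter is shown because Ltb is a known NF-κB target and the deleted gene is an NF-κB inhibitor. The 300 bases at chr17:35194257-35194556 (RefSeq, GRCm38.p6, plus strand, 250 before and 50 after the start) hold 1 match to the 10-letter NF-κB consensus, searched on both strands, which begins 87 bases before the start and is in capitals.
Ltb promoter: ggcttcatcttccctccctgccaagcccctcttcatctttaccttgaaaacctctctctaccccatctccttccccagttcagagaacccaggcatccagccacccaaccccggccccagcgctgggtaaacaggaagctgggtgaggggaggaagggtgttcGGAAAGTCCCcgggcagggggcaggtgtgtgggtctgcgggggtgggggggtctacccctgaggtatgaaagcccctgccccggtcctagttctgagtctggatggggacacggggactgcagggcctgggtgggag
Such a match occurs in 5.8% of 32851 promoters, so it is a description. Whether NF-κB binds there, and its part in the Ltb difference, was not tested. Of 17 genes looked up, 15 had a promoter in the table. Of these 15, 5 held a match and 10 did not. Ltb, Nfkbia, Fos and Fosb held 1 match each, as did 1 of the 5 Satb1 promoters. Flt3, Ccr9, Notch1, Dusp1, Irf8, Id2, Mllt3, Cd34, Cd48 and Plac8 held 0.

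Other NF-κB genes did not move as a group. Of 5 NF-κB subunit and inhibitor genes tested, 0 were past the fold, and of 7 listed targets, 1 was higher (Ltb) and 1 lower (Cflar, an inhibitor of caspase 8, -0.53). The target median was 0.165 against 0.01 for all genes, of which 1.29% were past the fold upward and 1.86% downward. The lymphoid priming list had 1 gene higher (Ltb) and 1 lower (Ccr9) of 15, with a median of 0.136. The FLT3 pathway had 0 of 16 past the fold and a median of -0.018, and the retinoic acid list 0 of 3. Log2 KO over WT was 0.13 for Satb1, -0.14 for Cd34 and -0.02 for Cd48. Ccr9 itself had 36 CPM in WT and 19.2 in KO, a log2 KO over WT of -0.90 (-1.37 to -0.45). Its UMIs came from 23 WT and 20 KO cells (12.6% and 9.62%), and the interval does not hold the spread among them. In the Il7r cells its log2 KO over WT was 0.30 (-0.04 to 0.64), and in the whole stem cell core it was -2.42 (-3.69 to -1.35).

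Of 11 listed immediate early genes, 3 were past the fold upward in KO, as were 1.29% of all genes. Their levels differed between the male and female KO cells. Fos (chromosome 12, 85473890 to 85477273, plus strand) had 39 CPM in WT and 70.1 in KO, a log2 KO over WT of 0.85 (0.54 to 1.16), and Fosb had 0.90 (0.41 to 1.40). Both encode subunits of AP-1. Among the KO Flt3 cells, Fos had 159 CPM in the 31 male and 52.8 in the 158 female cells. Of the immediate early list, 1 KO Flt3 cell held 103 UMIs and the next 35, and the part of that cell was not tested. With cells carrying Xist and no Y-linked UMI alone, KO over WT was 0.44 (0.08 to 0.80) for Fos and 0.49 (-0.07 to 1.05) for Fosb. The other gene was Dusp1, a MAP kinase phosphatase, with 0.66 in all Flt3 cells and 0.43 (-0.15 to 1.01) in the cells with Xist alone. The KO library pooled 3 embryos, so sex cannot be told apart from the embryo a cell came from. The part of either in these differences was not tested.

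Mllt3 was higher and Irf8 and Id2 lower in KO Flt3 cells. Mllt3 had 17.7 CPM in WT and 30 in KO, a log2 KO over WT of 0.76 (0.29 to 1.24), against -0.06 (-0.26 to 0.14) in the matched core. Irf8 (chromosome 8, 120736358 to 120756694, plus strand) had 53.5 and 31 CPM, or -0.79 (-1.16 to -0.43), but 0.62 (0.06 to 1.18) in the matched core. The top cell held 22.6% of the WT and 24% of the KO Irf8 UMIs. Id2 (chromosome 12, 25093799 to 25097140, minus strand) had -0.998 (-1.35 to -0.66). In the cells with Xist alone it had 154 UMIs in WT and 92 in KO, or -0.15 (-0.54 to 0.24). No WT Flt3 cell held a Y-linked UMI, so the 14 WT cells left out here held neither Xist nor Y-linked UMIs. In the Il7r cells Id2 had a log2 KO over WT of 1.31 (0.99 to 1.64), and in the whole stem cell core -0.72 (-1.09 to -0.35). Few WT Flt3 cells carried most of the Id2 UMIs. In WT, 8 cells that also held Irf8 carried 179 Id2 UMIs, and 21 cells without Irf8 carried 66. The parts of single cells and of sex in the Id2 difference were not tested. Pf4, a platelet chemokine, had 11.8 and 33.9 CPM, with 15.5% of KO UMIs in 1 cell.

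Hist1h2ap, a histone H2A gene, was lower in KO, with 841 CPM in WT and 458 in KO, and its log2 KO over WT was -1.08 in the matched core. Gm10076 had 1440 and 795 CPM. Both have near-identical copies between which reads can be split. Other genes among the 10 lowest were AI506816 (log2 KO over WT -1.20 in Flt3 cells and -0.91 in the matched core), Lbp, the lipopolysaccharide-binding protein (-1.10 and -1.23), Dynlt1f (-0.97 and -0.59) and Gstp1, a glutathione transferase (-1.11 and -0.50). All 4 were thus lower in KO in both sets of cells. Among the highest, Hddc3 had 0.93 in the Flt3 cells and 0.88 in the matched core. Haemoglobin genes did not move together. Hbb-bs had 276 CPM in WT and 578 in KO Flt3 cells, a log2 KO over WT of 1.07 (0.79 in the matched core), and Hba-a1 and Hba-a2 had 0.86 and 0.84. Hbb-bt, the most abundant of them in WT, was lower, with 755 and 534 CPM, or -0.50 (-0.59 to -0.41), and -0.77 in the matched core. The part of haemoglobin RNA in the other differences was not tested. Over all Flt3 cells, summed markers of macrophages (9.02 CPM in WT and 6.75 in KO), endothelium (23.1 and 22.8), neutrophils (3.98 and 5.47) and mast cells (1.86 and 2.89) were low. Those of erythroblasts were not, with 1270 and 1520 CPM. The hepatocyte list had 1110 and 1800 CPM, of which 1 cell in each library held 93.2% and 93%. Of 41 S phase genes 1 was past the fold and of 50 G2/M genes 1, with medians of 0.092 and -0.023. Of all genes 3.15% were past it.

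**Figure D4:**
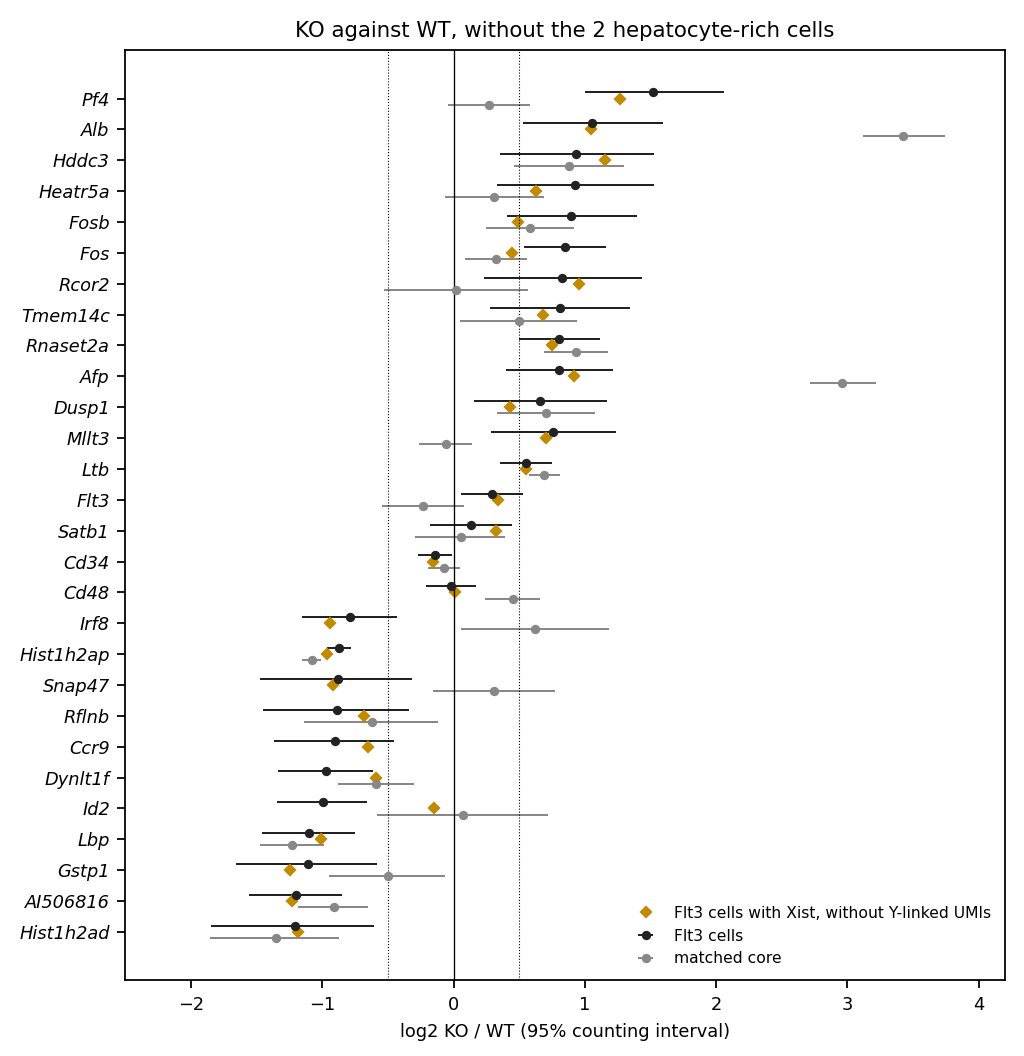
Log2 KO over WT in Flt3 cells without the 2 hepatocyte-rich cells (black), in the matched core (grey) and in the Flt3 cells that held Xist but no Y-linked UMI (yellow diamonds), with 95% intervals of counting error. Ltb lies above 0 in all 3 (0.55, 0.69 and 0.55), while Irf8 is below 0 in Flt3 cells (-0.79) and above it in the matched core (0.62).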

How the data were processed

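The authors' deposited files hold raw UMI counts per gene and cell barcode from 10x 3' libraries of the WT and KO LSK sorts, made with Cell Ranger 6.0.0 (submitters' processing notes) on GRCm38. The annotation release was not given in the sources used here, and gene positions come from GENCODE for that build. Barcodes under 1000 detected genes or over 20% mitochondrial UMIs were dropped. Scrublet in scanpy 1.11.5, set to an expected rate of 5%, marked doublets, which were kept, with an alternative that leaves them out. Counts were summed per library and set of cells with Python 3.11.15, pandas 2.3.3 and scipy 1.17.1, and expressed as CPM. No test was run, since each genotype had 1 library. Levels and ratios carry exact Poisson or binomial intervals and shares Clopper-Pearson intervals, all at 95% and for counting error only, and a count of 0 was set to a floor of 3. Shares at equal depth used cells thinned to 8000 UMIs.

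Named genes were the 10 highest and 10 lowest in KO over WT with at least 100 UMIs, up to 12 higher and 8 lower against the peers, any gene of the lists, and Nfkbia. Haemoglobin, mitochondrial, sex-linked and rule genes stayed out of the ranks. Haemoglobin genes and the genes named against the matched core or in the Ccr9 cells that fall outside this rule were chosen after their values were seen. The cells and the gene lists were chosen with earlier results of these data known. The matched core, the removal of the 2 hepatocyte-rich cells and the Flt3 cells with Kit and Ptprc are alternatives chosen after seeing the data. The other alternatives changed the doublet, sex, depth, UMI, scaling and rule limits. The scripts were tested on simulated data. The result for 1 gene against the peers is not reported here.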

Additional observations from a re-analysis of the deposited data

Results flagged for a closer look

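Among 240 genes looked at, 3 had KO over WT intervals on opposite sides of 0 in the Flt3 cells and in the matched core. Irf8, a factor of monocyte and dendritic fates, had -0.787 on the log2 scale in the Flt3 cells and 0.621 in the matched core. Ccnb2, a mitotic cyclin, had -0.310 and 0.198. Cenpf, a kinetochore protein, had -0.280 and 0.169. The difference between the sets was not tested, since each genotype is 1 library.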

How the results depend on the processing

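No paired analysis was possible because WT and KO are 1 library each. For the same reason no replicate could be left out. The share difference (-0.589 percentage points) was -2.44 after thinning to 1 depth and -2.69 with no limit on Mpo. The smallest log2 ratio of the 3 markers against the whole core (0.554) was 0.352 without Scrublet calls and 0.309 against the matched core. The 8 genes past the fold against the peers became 19 without Scrublet calls, 3 with at least 2 Flt3 UMIs, 19 with Xist and no Y-linked UMI, 2 at 300 UMIs or more, 439 when peers needed no Kit or Ptprc, and 4 in Flt3 cells with Kit and Ptprc. Leaving out the hepatocyte-rich cells kept the counts against the whole core, Il7r cells and Mpo cells at 147, 77 and 207. The 208 genes past the fold in KO over WT were 38 at 300 UMIs or more and 1300 at 20 or more. The lymphoid median (0.119) was 0.039 in Flt3 cells with Kit and Ptprc. The Dntt share difference at 8000 UMIs per cell (0 of 177 WT and 1 of 188 KO cells, 0.532 percentage points) was 0.478 with all UMIs, and kept an interval that includes 0 throughout.

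Liver genes reversed where the KO hepatocyte-rich cell, which has 1 Flt3 UMI and 0 of Kit and Ptprc, drops out by construction. With at least 2 Flt3 UMIs, log2 KO over WT was -4.11 for Afp, -5.08 for Apoa1, -5.01 for Apoa2, -1.30 for Apoc1, -3.68 for Fabp1, -4.77 for Rbp4, -4.54 for Serpina1a, -3.17 for Serpinf2, -3.72 for Spp2, -5.06 for Ttr and -2.30 for Vtn. With Kit and Ptprc it was -3.34 for Afp, -3.85 for Apoa1, -4.40 for Apoa2, -0.27 for Apoc1, -2.31 for Fabp1, -3.92 for Rbp4, -3.68 for Serpina1a, -3.49 for Serpinf2, -4.38 for Spp2, -5.40 for Ttr and -2.27 for Vtn. Of 501 gene values over the alternatives, 419 stayed within their interval and 60 moved without a change of sign. The causes of the other changes were not tested.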

Other observations

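Several list genes lay under the minimum of 100 UMIs for KO over WT and so entered no count of that comparison. Nfil3 had 29 UMIs in WT and 67 in KO Flt3 cells. Tcf7, a T cell factor, had 3 and 18. Slamf1, which encodes the stem cell marker CD150, had 1 and 12. Foxo1, a factor of lymphoid progenitors, had 30 and 11, and Esam 44 and 16. These are sums over 184 and 209 cells.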
